A study of Homo sapiens with 20 samples.

Results

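The genes described here are the E2F transcription factors E2F1, E2F2, E2F3, E2F4, E2F6, E2F7 and E2F8 and the Rb family RB1, RBL1 and RBL2, 10 genes of the 57773 rows of each count table, chosen by name. They were followed in RNA-seq of LNCaP, a human prostate cancer cell line of luminal character that responds to androgen. In the first experiment LNCaP cells received 20 nM of a non-targeting siRNA (siNTC, 2 samples) or of an siRNA against EHMT1 (siEHMT1, 2 samples) for 2 days. In the second, 4 stable LNCaP-tet-EHMT1 lines carried a doxycycline-controlled, V5-tagged EHMT1, either wild type (WT) or with the lysine changes K450R, K451R or K450RK451R. Each line was left uninduced (Veh) or given 0.25 µg/mL doxycycline (Dox) for 2 days. The labels give the same medium with serum for all cells, and the study kept its stable lines in serum free of tetracycline. EHMT1 reads of the lines may come from the endogenous gene or the construct, and whether each line was a single clone or a pool was not given in the sources used here. EHMT1 is a histone H3 lysine methyltransferase that works with its partner EHMT2.

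E2F factors bind DNA mostly as dimers with a DP protein and set the level of genes for DNA replication and the entry into S phase. E2F1, E2F2 and E2F3 are the activators, and they are held inactive by RB1 until cyclin-dependent kinases phosphorylate it. E2F4 carries no strong activation domain of its own and represses together with RBL1 (p107) and RBL2 (p130), of which RBL2 is the form typical of resting cells and RBL1 that of cycling cells. E2F6 represses without binding the Rb proteins and was purified in a complex that contains EHMT1 and EHMT2. E2F7 and E2F8 are atypical repressors that bind DNA without a DP partner and whose own genes are E2F targets. On GRCh37 the E2F genes lie at these positions, each a protein-coding gene counted over its exons: E2F1 at chr20:32263283-32274191, E2F2 at chr1:23832930-23857725, E2F3 at chr6:20402110-20493945, E2F4 at chr16:67226058-67232821, E2F6 at chr2:11584501-11606303, E2F7 at chr12:77415028-77459349 and E2F8 at chr11:19245610-19263167. The Rb genes are RB1 at chr13:48877880-49173572, RBL1 at chr20:35624752-35724400 and RBL2 at chr16:53467889-53525560.

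Several family genes carry E2F recognition letters just upstream of their own start, and these stretches are shown because they tie the members to one another. The 250 bases before each start, taken from RefSeq promoters of assembly GRCh38.p14 and placed by exact match on GRCh37, were searched on both strands for TTTCGCGC, TTTGGCGC, TTTCCCGC and TTTGCCGC. The match, in capitals in either orientation, was found at E2F1 (chr20:32274192-32274254, minus strand), E2F2 (chr1:23857730-23857797, minus strand), the first of the 2 E2F3 starts (chr6:20402027-20402094, plus strand) and RBL1 (chr20:35724401-35724456, minus strand), read 5′ to 3′ along each gene as
E2F1: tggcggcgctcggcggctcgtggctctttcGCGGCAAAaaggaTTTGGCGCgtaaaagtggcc
E2F2: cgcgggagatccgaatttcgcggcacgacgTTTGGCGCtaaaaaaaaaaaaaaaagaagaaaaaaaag
E2F3: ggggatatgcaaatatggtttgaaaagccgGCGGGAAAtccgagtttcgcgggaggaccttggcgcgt
RBL1: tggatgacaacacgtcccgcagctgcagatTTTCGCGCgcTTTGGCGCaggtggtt
E2F1 and RBL1 held 2 matches each, and E2F2 and E2F3 held 1. None of the 4 strings was in the windows of E2F4, E2F6, E2F7, RBL2 or the second E2F3 start. Of 35116 promoters of the same length, 2.79% held such a string. The table held no E2F8 entry, and its RB1 entry starts 172706 bases inside the gene and was set aside. The 2 RBL2 starts lie 494 and 1642 bases and the second E2F3 start 1735 bases inside the gene as annotated, and E2F6 starts 16 bases inside it, and these windows were kept.

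Each library held 4168199 to 12438006 counts. In the stable lines the 2 columns of each condition differed by no more than counting noise (chi-square per degree of freedom 0.995 to 1.02, against 13.4 and 61.6 between the samples of the siRNA groups), so they were summed and counted as 1 sample per condition. Levels are given as CPM, counts scaled to a common library size with TMM factors within each experiment. EHMT1 itself was lower in siEHMT1 (log2 fold change -1.52, SE 0.11, edgeR quasi-likelihood adjusted p = 2.34e-07) and 7.46-fold to 10.4-fold higher with Dox in the 4 lines. All 7 luminal markers were present at 173 CPM or more, and PTPRC, COL1A2 and CHGA were at 0 counts in every sample, while COL1A1 stood at 15.3 to 40.8 CPM.

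All 10 genes were detected in every sample, and their levels spanned 2 orders of magnitude. Per kilobase of exon, which allows genes to be compared, E2F1 and E2F4 led in siNTC at 22.6 ± 0.803 and 22.0 ± 1.06 CPM per kb (SD, n = 2) and did not differ beyond their spread. RBL2 followed at 12.2 ± 0.760 and RB1 at 6.37 ± 1.02 CPM per kb. E2F3 at 5.48 and RBL1 at 5.12 CPM per kb overlapped each other, and E2F3 overlapped RB1. E2F2 at 4.10, E2F8 at 3.06, E2F7 at 2.05 and E2F6 at 1.97 CPM per kb closed the order, of which the last 2 overlapped. Among the factors, then, the level per length ran from the activator E2F1 and the pocket-protein partner E2F4 down to the Rb-independent repressor E2F6.

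In the uninduced lines the order differed. RBL2 stood first at 18.2 ± 0.862 CPM per kb (SD, n = 4 lines), overlapping E2F1 at 16.4 ± 2.17 CPM per kb. E2F4 came next at 9.12 ± 0.956 and RB1 at 4.81 ± 0.702 CPM per kb. E2F3, E2F7 and RBL1 lay together at 2.02, 1.86 and 1.85 CPM per kb, each overlapping its neighbour, and so did E2F2, E2F8 and E2F6 at 1.22, 0.928 and 0.665 CPM per kb.

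**Figure D1:**
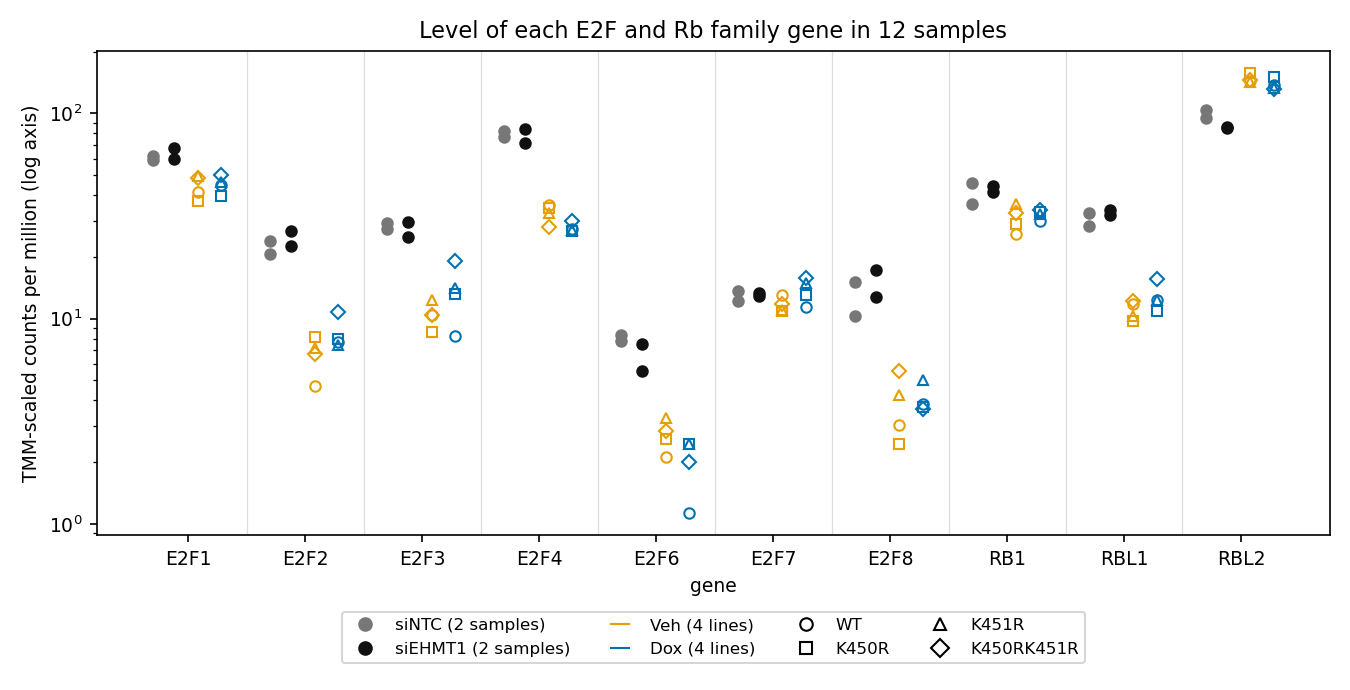
TMM-scaled CPM on a log axis for each of the 10 genes (horizontal axis), with filled circles for the 2 siNTC and 2 siEHMT1 samples and open symbols for the 4 lines under Veh (orange) and Dox (blue). The siRNA samples lie above every stable-line sample for 8 genes, overlap them for E2F7 and lie below them for RBL2.

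Apart from E2F7, the family differed more between the experiments than between the treatments within either. E2F7 had a siNTC to Veh ratio of 1.10 and a Dox/Veh ratio of up to 1.35, in K451R. In siNTC 6 of the 10 genes had more than 2-fold the level of the uninduced lines (against 10.9% of the 9964 genes that averaged 50 or more counts in each group), and none had less than 1/2 of it (against 6.74%). E2F6 and E2F8 averaged fewer counts than that in the lines, and of the 8 members at 50 or more, 4 were past 2-fold. At a minimum of 20 counts, which all 10 members met, the 6 stood against 12.4% of 11855 genes. The median ratio over the 10 genes was 2.56, against 1.08 over the 9964 genes. With TMM scaling over both experiments together these were 2.37 and 1.00, and the 6 genes past 2-fold numbered 6 again. Taking all samples, the 4 siRNA samples lay above all 8 stable-line samples for 8 genes, which 34% of the 9964 genes did, and below them for RBL2, which 24% did. E2F6 and E2F8 are among the 8. The experiments were normalized separately and differ in siRNA transfection, in the introduced construct, in the serum and in whatever else separated them, so these cannot be told apart and no test was made.

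E2F2, an activator, was at 24.0 and 20.8 CPM in siNTC and at 4.73, 8.14, 7.17 and 6.69 CPM in uninduced WT, K450R, K451R and K450RK451R, a ratio of 3.35. E2F8 had 15.0 and 10.3 CPM in siNTC and 3.04, 2.47, 4.25 and 5.58 CPM in the lines, a ratio of 3.30. Which of these 2 ratios is the higher depends on the siNTC sample, since siNTC 1 alone gives 3.59 for E2F2 and 3.92 for E2F8, and siNTC 2 alone 3.1 and 2.68. No line reached either siNTC sample in either gene. E2F6 had 7.75 and 8.30 CPM in siNTC and 2.11, 2.59, 3.28 and 2.84 CPM in the lines, a ratio of 2.97 that rests on 21 to 28 counts per line.

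RBL1 had 28.2 and 32.8 CPM in siNTC and 11.8, 9.74, 10.3 and 12.2 CPM in the lines (2.77-fold). E2F3 stood at 29.4 and 27.5 CPM against 10.5, 8.63, 12.4 and 10.5 CPM (2.71-fold), and E2F4 at 76.4 and 81.8 CPM against 35.7, 34.8, 32.7 and 28 CPM (2.41-fold). The 3 remaining E2F and Rb genes lay closer, E2F1 at 1.37-fold, RB1 at 1.33-fold and E2F7 at 1.10-fold. The genes past 2-fold included members with upstream E2F letters (E2F2, E2F3 and RBL1) and without them (E2F4 and E2F6), and E2F8, which had no window to search. E2F1, with 2 such matches, was not among them. Any part of these letters in the contrast was not tested.

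RBL2 went the other way, at 94.8 and 104 CPM in siNTC and 144, 158, 142 and 145 CPM in the lines, a siNTC to Veh ratio of 0.673. Within each sample, where scaling cancels, RBL2 per exon length was 1.86 to 2.47 times RBL1 in the 4 siRNA samples and 6.17 to 11.9 times RBL1 in the 8 stable-line samples. The lowest stable-line value, K450RK451R with Dox, was above every siRNA sample. This separation follows from RBL1 being higher and RBL2 lower in all siRNA samples, so it adds no support of its own. RBL2 shares 16.4% of its exon bases, and RBL1 3.58%, with genes of the opposite strand (AKTIP for RBL2), and whether reads were assigned by strand was not given in the sources used here. A second row carrying the RBL1 symbol is a long non-coding RNA on the opposite strand across the RBL1 start (GRCh37 chr20:35724188-35725581), which had 0 to 4 counts per sample and was left out.

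**Figure D2:**
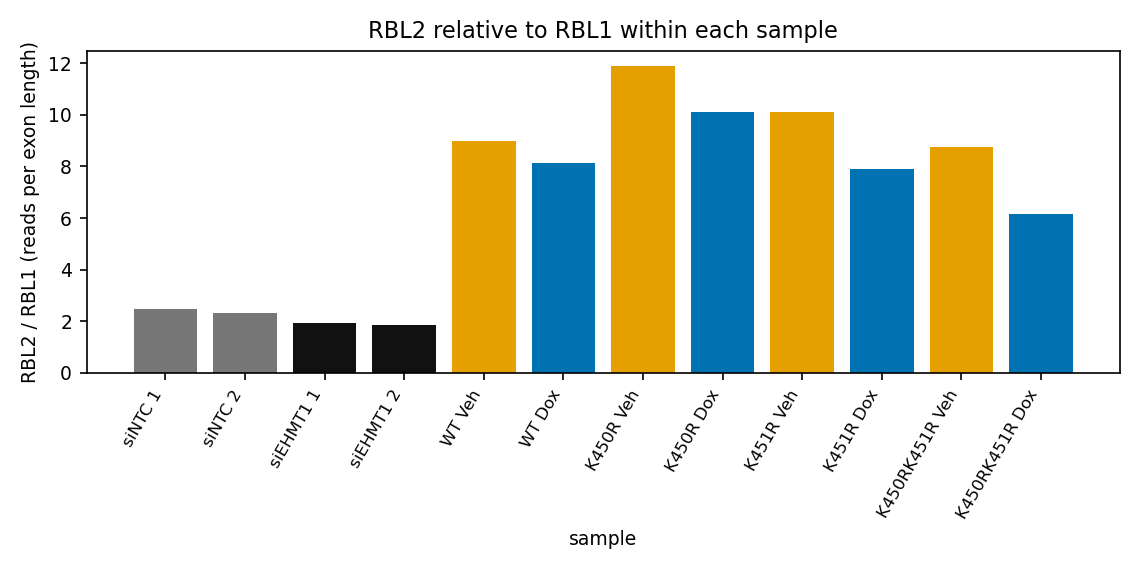
Ratio of RBL2 to RBL1 in reads per exon length (vertical axis, from 0) in each of the 12 samples, with siNTC in grey, siEHMT1 in black, Veh in orange and Dox in blue. The 4 siRNA samples lie between 1.86 and 2.47 and the 8 stable-line samples between 6.17 and 11.9.

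Many of the genes that E2F factors activate also had higher levels in siNTC. Of 31 E2F targets, 13 were past 2-fold higher in siNTC than in the uninduced lines and none past 2-fold lower (10.9% and 6.74% of the 9964 genes), with a median ratio of 1.83 against 1.08. The ratio was below 1 for 7 of the 31, and over all samples the 4 siRNA samples lay above the 8 stable-line samples for 20 targets, overlapped them for 9 and lay below them for 2, RRM1 and TOP2A. Of the 9964 genes, 34% lay wholly above and 24% wholly below in the siRNA samples. The genes outside the family named for this contrast were chosen after their values were seen. CDC25A, a phosphatase that activates cyclin-dependent kinases, had a ratio of 5.63, MCM3 of the replicative helicase 3.35, and PCNA, the sliding clamp of DNA polymerase, 3.27. The lowest ratios of the list were 0.668 for TOP2A, a topoisomerase, and 0.834 for RRM1, a subunit of ribonucleotide reductase. Of 18 partners and complex members 2 were past 2-fold higher in siNTC, L3MBTL2 (2.60) and MAX (2.13), a share near the 10.9% of the 9964 genes. With TMM scaling over both experiments together 1 was, against 8.47% of these genes. EHMT2 was at 0.729.

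Among 14 cyclins, kinases and inhibitors that act on the Rb proteins, the cyclin-dependent kinase inhibitors of the Cip/Kip family were higher in the lines. Of the list 3 genes were past 2-fold lower in siNTC, CDKN1B, CDKN1C and CCND2, the last with 0 to 4 counts in the lines. Of the 9964 genes 6.74% were. With TMM scaling over both experiments together 6 of the list were, against 8.8% of these genes. CDKN1C (p57) was at 2.57 CPM in siNTC and 89.4 CPM in uninduced lines, CDKN1B (p27) at 39.98 and 233 CPM, and CDKN1A (p21) at 403 and 771 CPM, and for all 3 the 4 siRNA samples lay below the 8 stable-line samples. The same held for 24% of the 9964 genes. It also held for CCND1, a cyclin (siNTC to Veh ratio 0.535), and for CDKN2D (0.510). The inhibitors CDKN2A, CDKN2B and CDKN2C overlapped between the experiments (0.972, 0.966 and 0.684). Of the 14 genes, 5 lay wholly above in the siRNA samples, against 34% of the 9964 genes. CDK6, an RB1 kinase, was the 1 upstream gene past 2-fold higher in siNTC (2.56), against 10.9% of the 9964 genes. The summed level of 10 hypoxia genes moved with this contrast, at 508 to 594 CPM in the siRNA samples and 3351 to 5164 CPM in the stable-line samples, and its part in the result was not tested. In bulk RNA a smaller share of cycling cells and less of an RNA per cell cannot be told apart.

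Knockdown of EHMT1 asks whether these genes depend on it. None of the 10 passed edgeR's quasi-likelihood test at an adjusted p of 0.05 in siEHMT1 against siNTC, where 0.124% of 14532 genes did (8 higher, 10 lower), and limma-voom also called none. DESeq2 did not call E2F1, E2F4 or RBL2. It gave no adjusted p for the other members and so could not call them. At an unadjusted p of 0.05 1 member passed, RBL2, as did 9.14% of all genes. The 10 log2 fold changes ran from -0.30 to 0.21 with a median of 0.05, against 0.00 over all genes.

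Among the activators, E2F1 was at 62.3 and 59.3 CPM in siNTC and 68.1 and 59.96 CPM in siEHMT1, overlapping, with a log2 fold change of 0.07 (95% interval -0.15 to 0.29). E2F2 was at 24.0 and 20.8 CPM against 26.7 and 22.7 CPM (0.12, interval -0.19 to 0.43). E2F3 was at 29.4 and 27.5 CPM against 25.1 and 29.7 CPM (-0.06, interval -0.35 to 0.24). For these 3 the 2 groups overlapped, and a change of more than 0.43 on the log2 scale lay outside each interval.

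E2F4 was at 76.4 and 81.8 CPM in siNTC and 71.8 and 84.1 CPM in siEHMT1 (log2 fold change -0.01, interval -0.23 to 0.20). E2F6 was at 7.75 and 8.30 CPM against 7.52 and 5.59 CPM, with 42 to 82 counts per sample and the widest interval of the family (-0.30, interval -0.80 to 0.20). Both siEHMT1 samples of E2F6 lay below both siNTC samples, an order that 2 against 2 samples often give by chance. The share of all genes with such an order was not computed. The difference did not pass the test (adjusted p = 0.744, edgeR). E2F7 was at 12.2 and 13.6 CPM against 12.8 and 13.3 CPM (0.04, interval -0.34 to 0.41). E2F8 was at 15.0 and 10.3 CPM against 12.7 and 17.3 CPM (0.21, interval -0.21 to 0.63), with the 2 groups overlapping.

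RB1 was at 36.4 and 45.7 CPM in siNTC and 41.4 and 44.4 CPM in siEHMT1 (log2 fold change 0.09, interval -0.17 to 0.35). RBL1 was at 28.2 and 32.8 CPM against 32.2 and 34.0 CPM (0.13, interval -0.14 to 0.41). RBL2 was at 94.8 and 104 CPM in siNTC and 84.97 and 86.1 CPM in siEHMT1, so that the groups did not overlap, and its log2 fold change of -0.21 (SE 0.10, interval -0.41 to -0.01) had an unadjusted edgeR p of 0.0426 and an adjusted p of 0.524. As for E2F6, the share of all genes without overlap was not computed.

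The genes around the family gave no call either. None of 18 partners, 13 upstream genes tested or 31 E2F targets was called, with 1 of each list under an unadjusted p of 0.05 (9.14% of all genes) and medians of -0.02, 0.03 and -0.05 on the log2 scale, and no DESeq2 or limma-voom call. The largest log2 differences were 0.60 for YAF2, which binds the E2F6 complex, -0.47 for CDKN2D, an inhibitor of the cyclin D kinases, and -0.35 for POLE2, a subunit of DNA polymerase epsilon (edgeR adjusted p = 0.529, 0.541 and 0.659).

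**Figure D3:**
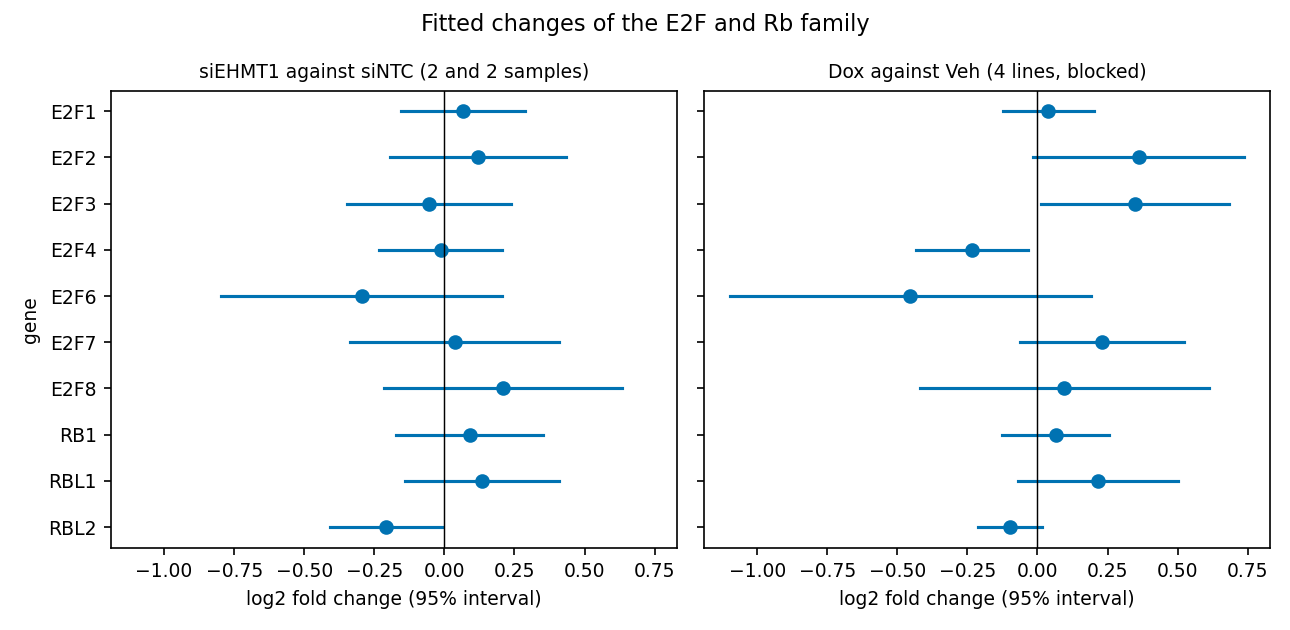
Log2 fold change of the 10 genes (points) with 95% intervals (bars) for siEHMT1 against siNTC on the left and for Dox against Veh over the 4 lines on the right. The points run from -0.30 to 0.21 on the left and from -0.45 to 0.36 on the right, and no gene passed the adjusted test in either comparison.

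Induction of EHMT1 asks the converse, and the 4 lines, which carried different forms of EHMT1, served as replicates of the Dox effect. No cells without the construct were given Dox, so effects of the drug and of the EHMT1 rise cannot be told apart. Again none of the 10 genes was called by edgeR's quasi-likelihood test with the line as a block, where 2.03% of 14105 genes were (78 higher, 208 lower), and none by limma-voom. DESeq2 called none either, but it gave no adjusted p for E2F2, E2F6 and E2F8 and so could not call them. Under an unadjusted p of 0.05 were 2 members, E2F4 and E2F3, and 14.2% of all genes. The 10 log2 fold changes ran from -0.45 to 0.36 with a median of 0.08, against 0.00 over all genes. No p in the stable lines rests on replicate cultures of a line.

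E2F3 had 10.5 CPM in uninduced and 8.23 CPM in induced WT, 8.63 and 13.1 CPM in K450R, 12.4 and 14.2 CPM in K451R and 10.5 and 19.1 CPM in K450RK451R. By these values E2F3 was higher with Dox in the 3 mutant lines and lower in WT, with 1 sample per condition. The interval of the Dox/Veh ratio for counting error only took in 1 in WT (0.58 to 1.06) and K451R (0.89 to 1.47). It excluded 1 in K450R (1.12 to 2.07) and K450RK451R (1.44 to 2.32), so the fall in WT and the rise in K451R were within counting error. Over the 4 lines the log2 fold change was 0.35 (SE 0.16, interval 0.01 to 0.68, edgeR unadjusted p = 0.0427, adjusted p = 0.327). With 1 line left out it ran from 0.15 (edgeR adjusted p = 0.832) without K450RK451R and 0.27 (adjusted p = 0.650) without K450R to 0.56 (adjusted p = 0.0522) without WT. The induced K450RK451R value was the highest of the 8 stable-line samples, and still below the lowest siRNA sample at 25.1 CPM.

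E2F4 had 35.7 and 27.3 CPM in WT, 34.8 and 26.7 CPM in K450R, 32.7 and 27.1 CPM in K451R and 28 and 29.9 CPM in K450RK451R, uninduced and induced. It was lower with Dox in 3 lines and not in K450RK451R, which started lowest. The fitted log2 fold change was -0.23 (SE 0.10, interval -0.43 to -0.03, edgeR unadjusted p = 0.0245, adjusted p = 0.256).

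E2F1 had Dox/Veh ratios of 1.08, 1.06, 0.933 and 1.04 in WT, K450R, K451R and K450RK451R, with a fitted log2 fold change of 0.04 (interval -0.12 to 0.20). E2F2 had ratios of 1.62, 0.983, 1.04 and 1.62 in the same order, high in WT and K450RK451R alone, and a log2 fold change of 0.36 (interval -0.01 to 0.74, edgeR adjusted p = 0.379). Its counts in the lines were 56 to 140.

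E2F7 was, like E2F3, above 1 in the 3 mutant lines and below 1 in WT, with ratios of 0.870, 1.20, 1.35 and 1.34 and a log2 fold change of 0.23 (interval -0.06 to 0.52). E2F6 had ratios below 1 in every line, 0.534, 0.947, 0.744 and 0.709, but on 10 to 30 counts, and its interval of -1.10 to 0.19 took in 0. E2F8 had 1.26, 1.51, 1.19 and 0.653 on 20 to 62 counts and a log2 fold change of 0.10 (interval -0.42 to 0.61).

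Of the Rb genes, RB1 had ratios of 1.16, 1.14, 0.896 and 1.03 (log2 fold change 0.06, interval -0.13 to 0.26). RBL1 was above 1 in every line, at 1.05, 1.12, 1.20 and 1.29 (0.22, interval -0.07 to 0.50). RBL2 was below 1 in every line, at 0.952, 0.95, 0.936 and 0.906, with the narrowest interval of the family (-0.10, -0.21 to 0.02). Its edgeR adjusted p was 0.464.

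**Figure D4:**
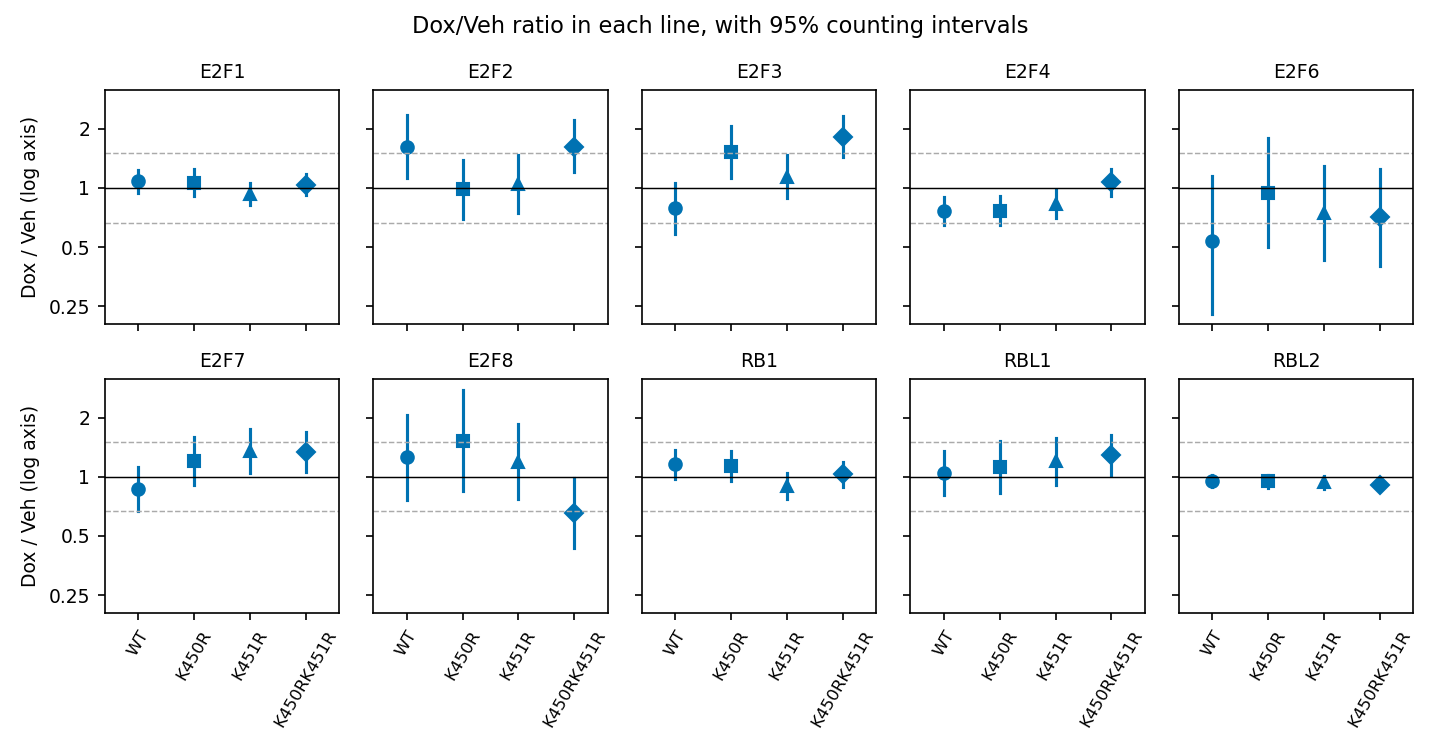
Ratio of the induced to the uninduced level in each line (log axis) for the 10 genes, with exact 95% intervals that cover counting error only and dashed lines at 1.5-fold. E2F3 is highest in K450RK451R at 1.82 and lowest in WT at 0.786, E2F1 and RBL2 lie near 1 in every line, and the intervals of E2F6 and E2F8 are wide.

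Line by line, with 1 sample per condition and hence no test, few members passed 1.5-fold. In WT it was 1 higher, E2F2, and 1 lower, E2F6, against 4.84% and 6.45% of all genes. In K450R E2F3 and E2F8 were higher and none lower, against 7% and 5.96%. In K451R it was none in either direction, against 6% and 5.56%. In K450RK451R E2F3 and E2F2 were higher and E2F8 lower, against 8.33% and 5.57%. Of the members past 1.5-fold, the exact (Clopper-Pearson) 95% interval of the ratio excluded 1 for E2F3 in K450RK451R (1.44 to 2.32) and K450R (1.12 to 2.07), for E2F2 in WT (1.12 to 2.35) and K450RK451R (1.20 to 2.2) and for E2F8 in K450RK451R (0.433 to 0.981), and not for E2F6 in WT (0.229 to 1.15) or E2F8 in K450R (0.850 to 2.77). Below 1.5-fold it also excluded 1 for E2F4 in WT, K450R and K451R, for E2F7 in K451R and K450RK451R and for RBL1 and RBL2 in K450RK451R, which makes 12 of the 40 ratios. Such intervals cover counting error only. The share of all genes whose interval excludes 1 was not computed, so whether 12 of 40 is many cannot be said.

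Whether the double mutant K450RK451R or the WT protein acted unlike the rest was tested as an interaction, in which the lone line is assumed to vary like the others. For K450RK451R against the other 3 lines none of the 10 genes was called by edgeR, against 0.00709% of 14105 genes, and none by limma-voom. Under an unadjusted p of 0.05 were 2 members and 6.86% of all genes. E2F3 differed by 0.72 on the log2 scale (SE 0.34, edgeR unadjusted p = 0.0403, adjusted p = 0.720). E2F4 differed by 0.44 (SE 0.21, edgeR unadjusted p = 0.0409, adjusted p = 0.720). E2F8 differed by -0.99 (SE 0.52, adjusted p = 0.740, edgeR).

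For WT against the 3 mutant lines none of the 10 was called by edgeR either, against 0.142% of all genes, and none by limma-voom. E2F3, at -0.90 (SE 0.35, edgeR unadjusted p = 0.0136, adjusted p = 0.569), was the 1 member under an unadjusted p of 0.05, where 6.99% of all genes were. E2F7 was at -0.58 (SE 0.31, adjusted p = 0.746, edgeR).

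Of the 31 E2F targets 1 was called with Dox over the 4 lines, where 2.03% of all 14105 genes tested were. PCNA rose, from 50.98 to 62.2 CPM in WT, 59.7 to 74.7 CPM in K450R, 70.99 to 88.5 CPM in K451R and 67.96 to 96.7 CPM in K450RK451R, with a log2 fold change of 0.36 (SE 0.07, edgeR adjusted p = 0.00256). It was higher in 4 of 4 lines. CCNE1, the S phase cyclin E, was at 0.39 (SE 0.15, adjusted p = 0.197, edgeR) and CDC25A at 0.34 (SE 0.16, adjusted p = 0.357, edgeR). The median over the targets was 0.05, 17 were positive and 14 negative, and 6 were under an unadjusted p of 0.05, as were 14.2% of all genes.

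No partner or upstream gene was called, by edgeR or by DESeq2 or limma-voom, with 0 of 18 and 1 of 13 under an unadjusted p of 0.05 (14.2% of all genes). That 1 was CDKN1C, at 94.3 and 105 CPM in WT, 98.8 and 79.8 CPM in K450R, 78.8 and 58.2 CPM in K451R and 85.7 and 61.8 CPM in K450RK451R, uninduced and induced. Its log2 fold change was -0.26 (SE 0.08, edgeR adjusted p = 0.0931) over the 4 lines. It was -0.41 (edgeR adjusted p = 0.00081) without WT, the line in which it was higher with Dox. The WT line differed from the mutants by 0.56 (SE 0.14, edgeR unadjusted p = 0.000382, adjusted p = 0.131), opposite in sign to the same difference in E2F3. With no filter on low counts CDKN1C was called (-0.25, edgeR adjusted p = 0.0277). It was not called with K450R, K451R or K450RK451R left out. SKP2, which targets CDKN1B for degradation, was at 0.18 and YAF2 at 0.23 (edgeR adjusted p = 0.365 and 0.647).

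With Dox 3 of the 9 hypoxia genes tested were called lower and none higher. Of all 14105 genes tested 2.03% were called, 208 lower and 78 higher. The summed level of the 10 hypoxia genes was 5164 and 4850 CPM in WT, 4897 and 4169 CPM in K450R, 4428 and 3496 CPM in K451R and 4196 and 3351 CPM in K450RK451R. It was lower with Dox in every line, and its part in the PCNA, CDKN1C and E2F3 values was not tested.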

How the data were processed

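RNA-seq counts of 20 columns were analysed, 4 of the siRNA experiment and 16 of the stable lines. Per the labels and the submitters' processing notes, the authors made total RNA libraries with a stranded kit, checked reads with FastQC 0.11.9, aligned them with STAR 2.7.2 to hg19/GRCh37 and deposited whole-number read counts per gene from featureCounts 1.6.4. The strand setting and annotation release were not given in the sources used here. Gene positions and exon lengths came from GENCODE on GRCh37, which held 55538 of the 57773 identifiers.

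Each experiment was scaled and fitted alone with edgeR 4.0.16 in R 4.3.3 (TMM, filterByExpr, quasi-likelihood F test, Benjamini-Hochberg over all genes tested, threshold 0.05), the stable lines on summed columns with line as a block. DESeq2 1.42.0 and limma 3.58.1 (voom) were alternatives. Total counts ran from 4168199 to 12438006 per column, and 3 counts amounted to at most 0.720 CPM. Nothing in the labels says that the siRNA samples were separate cultures, so p-values measure the spread between these samples. All 10 members passed the filter in both experiments. The fits were tested on simulated data that had the same spread for every gene and changes of 2-fold or more at a mean of at least 50 counts. All changes fitted for the members were smaller, so the simulation does not give the power to find them.

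The members and lists were chosen with earlier results of these data known. Named genes were the members and, from lists of 18 partners, 14 upstream genes and 31 targets, those past the test or else up to 3 of each list with the largest change at a mean count of at least 50. The contrast between the experiments was added after seeing the data.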

Additional observations from a re-analysis of the deposited data

Results flagged for a closer look

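In 30 comparisons of the 4 lines, 1 value stood apart by Dixon's test at the 95% level, which chance reaches in about 1 of 20 groups. E2F8 with Dox was at 2.34 log2 CPM in K451R, from 62 counts, and between 1.86 and 1.94 in the other 3 lines, from 34 to 47 counts.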

How the results depend on the processing

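No member was called in any fit under DESeq2, limma-voom, RLE size factors, no filter on low counts or leaving out a replicate or line (DESeq2 and the left-out samples in the siRNA and Dox comparisons only). DESeq2 gave no adjusted p for E2F2, E2F6 and E2F8 in either comparison, nor for E2F3, E2F7, RB1 and RBL1 with siEHMT1, and could not call these. Among the alternatives of the siRNA comparison, the count of E2F targets called ran from 0 to 1 when a replicate was left out: MKI67 was called at a log2 fold change of 0.46 without siEHMT1 replicate 1 and at -0.47 without siEHMT1 replicate 2. In the Dox comparison it ran from 1 to 2 over the lines left out, MCM3 joining PCNA without the WT line. Signs turned for members that were never called, and with a replicate left out their log2 fold changes ran from -0.027 (without siEHMT1 replicate 1) to 0.16 for E2F1, -0.19 to 0.054 (without siEHMT1 replicate 1) for E2F3, -0.13 to 0.092 (0.030 without siNTC replicate 2 and 0.092 without siEHMT1 replicate 1) for E2F4, -0.059 (without siNTC replicate 1) to 0.10 for E2F7, -0.046 (without siEHMT1 replicate 2) to 0.56 for E2F8 and -0.088 (without siNTC replicate 1) to 0.24 for RB1, and with a line left out from -0.034 (without K450R) to 0.37 for E2F8 with Dox. The cause was not tested. Genes called overall with siEHMT1 numbered 18, and 42 to 237 with a replicate left out or 109 unfiltered. With Dox they numbered 286, and 140 by DESeq2 and 97 to 472 with a line left out. At 2-fold in place of 1.5-fold 0 members passed in any line, and of genes averaging 100 or more counts 0.459% to 1.73% passed 1.5-fold. The 6 members past 2-fold higher in siNTC than in Veh numbered 6 with each siNTC replicate left out, with library totals and with TMM over both experiments together. The numbers of the siRNA samples did not pair them (Pearson -0.00, Spearman 0.03 between same-numbered deviations over 14532 genes), and with the replicate block 0 members, 0 targets and 99 genes were called. Depth limits E2F6 and E2F8, with 10 to 62 counts per stable-line sample.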

Other observations

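Over the 8 stable-line conditions, among 9144 genes with a mean of at least 100 counts, the log2 CPM of E2F1 was closest to that of DNMT1, the maintenance DNA methyltransferase (Pearson r 0.966), ZC3H13 (0.960) and MLTK (0.95). For RB1 the closest were the mitochondrial phosphate carrier SLC25A3 (0.961), RCBTB1 (0.957), which lies on the same chromosome as RB1, and ABCE1 (0.947). Within the family E2F3 and E2F7 were the most alike (0.827) and RBL1 and RBL2 the most opposed (-0.825). The points are 8 conditions of 4 lines that share a line and an experiment, so these are descriptions only.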
